A study of Mus musculus with 24 samples.

Results

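Fibroblasts build the extracellular matrix of connective tissue, and the genes described here encode its secreted parts and the enzymes that cut it. They were chosen by name from the gene table of the array: collagens, laminins, nidogens, fibulins, fibrillins, microfibril-associated proteins, elastin, lysyl oxidases, fibronectin, Sparc, periostin, thrombospondins, decorin, biglycan, lumican, the matrix metalloproteinases (Mmp) and their tissue inhibitors (Timp). The rule found 75 genes of the 8251 on the array with a probe set of their own. RNA came from primary mouse embryonic fibroblasts in 6 groups of 4 arrays, 24 in all. Wild type cells and CHOP-/- cells were each measured untreated and after 4 h and 8 h with tunicamycin at 2 µg/ml. The transcription factor CHOP is the product of Ddit3, and the CHOP-/- cells are labelled as lacking it at all 3 times. The untreated groups carry no time and no solvent in the labels, so time in culture and solvent cannot be told apart from the drug. Passage 3 is given on 3 arrays, all of them untreated wild type. Whether arrays A to D of a group stand for separate cultures is not labelled. The p-values then describe the spread between these arrays, which may be technical.

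Matrix proteins are made on ribosomes of the endoplasmic reticulum (ER), where collagen chains are hydroxylated, joined into a triple helix and packed for export, and where many of these proteins receive N-linked sugars. Tunicamycin blocks that sugar transfer, so unfolded proteins gather in the ER and the unfolded protein response follows. That response raises folding factors and, through the kinase PERK, induces CHOP, while some mRNAs bound to the ER membrane are cut by IRE1.

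Signals are the deposited intensities, which had been scaled so that the mean of each array without its outer 2% at each end lay between 250.1 and 250.2. A gene was tested when its mean log2 value passed the 40th percentile of all values, a signal of 28.6, and 5662 genes did so. Ddit3 signals were 215.5 to 437, 2773.9 to 4396.6 and 3857 to 4883 in untreated, 4 h and 8 h wild type cells and 6.9 to 32.3, 15.6 to 40.4 and 7.1 to 39 in CHOP-/- cells, which fits the labels (exact two-sided permutation test, p = 0.0286 at each time, the smallest that 4 against 4 arrays can give). Of 8 fibroblast markers, 6 passed the signal limit (Thy1, Pdgfra, Pdgfrb, S100a4, Fap and P4ha1). Vim, which fibroblasts make in abundance, did not, with signals of 8.4 to 41.1. A gene under the limit may therefore still be expressed. No cartilage or bone marker of 2, 1 endothelial marker of 7, 2 epithelial markers of 7 and 3 leukocyte markers of 7 passed. Markers of nerve (3 of 6), skeletal and cardiac muscle (6 of 7) and smooth muscle (5 of 5) passed too. Among them were Tubb3, Nes, Ncam1 and Actc1 with mean signals of 1620, 983, 1070 and 1530. The neural Gfap, Map2 and Sox2 did not pass.

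Of the 75 matrix genes, 58 were tested and 17 were not. The 17 were Col2a1, Col11a2, Col10a1, Col13a1, Col17a1, Col19a1, Col22a1, Col26a1, Col4a3, Col4a4, Lama3, Lamb3, Mmp2, Mmp7, Mmp8, Mmp16 and Mmp24. Their mean signals over all arrays were 1.57 to 25.1, and the highest signal on a single array was 87.6, for Mmp8. Mmp2, gelatinase A, lay between 1.2 and 17.6 on all arrays. Thbs1 was on the array only through a probe set that it shares with another gene, so it has no value here.

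At 8 h of tunicamycin the matrix genes that passed the test fell, with 1 exception. In wild type cells 7 fell and 1 rose, and in CHOP-/- cells 11 fell and none rose (limma, Benjamini-Hochberg adjusted p under 0.05 over all genes tested). Nid1, Mfap2, Col8a1 and Col3a1 fell in both genotypes, which is 4 of the 8 called in wild type cells and 4 of the 11 called in CHOP-/- cells. The same overlap over all genes was not counted, so whether 4 is many is not known. The genes of the most abundant matrix proteins of connective tissue, Col1a1, Col1a2 and Fn1, were called at no time in either genotype. Over all genes tested, 9.63% were called higher and 6.99% lower at 8 h in wild type cells, and 7.35% higher and 6.59% lower in CHOP-/- cells. The 8 h counts by role and by list below are to be read beside these shares, and none was tested against them. The median log2 change of the 58 matrix genes was -0.28 in wild type cells, with 47 of 58 (81%) below 0, against -0.02 and 52% for all genes tested. In CHOP-/- cells the median was -0.16, with 37 of 58 (63.8%) below 0, against -0.01 and 51.4%. In RNA from whole cultures, fewer cells of a type and less RNA per cell cannot be told apart. The summed signal of the 8 fibroblast markers was 8809 to 9671 in untreated and 5834 to 6858 in 8 h wild type arrays, and 7432 to 8483 and 4821 to 7604 in CHOP-/- arrays. Thy1 and S100a4 weigh most in that sum, with mean signals over all arrays of 3530 and 2370, and no other marker of the 8 passed 645. Of 6 fibroblast markers tested, S100a4 (-1.04) and Pdgfrb (-0.74) fell in wild type cells and S100a4 (-1.41) in CHOP-/- cells. Markers of other cell types fell as well at 8 h in wild type cells, the endothelial Flt1 (-0.71, 1 of 1 tested), the neural Tubb3 (-0.41) and Ncam1 (-0.69, 2 of 3) and the smooth muscle Cnn1 (-0.55, 1 of 5). In CHOP-/- cells no tested marker of these types was called. The part of these shifts in the changes of the matrix genes was not tested.

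**Figure D1:**
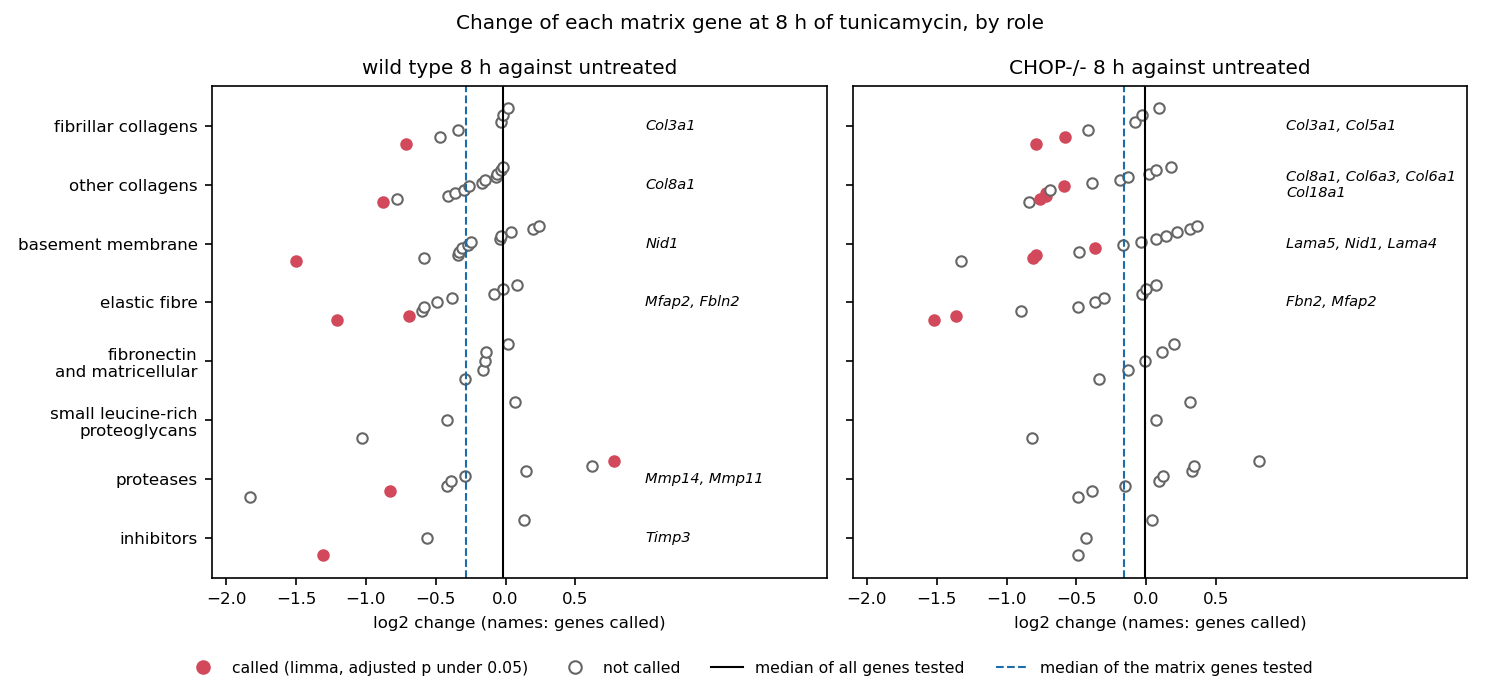
Log2 change at 8 h against untreated (horizontal axis) for each of the 58 matrix genes tested, by role (vertical axis), in wild type cells (left) and CHOP-/- cells (right). Filled points passed the test and are named at the right of each row; the lines mark the medians of the matrix genes (-0.28 and -0.16) and of all genes tested (-0.02 and -0.01).

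Fibrillar collagens form the tensile fibres of the matrix. Of 6 tested, 1 fell at 8 h in wild type cells and 2 fell in CHOP-/- cells. Col3a1, the single chain of type III collagen, had signals of 2975.7, 2308.5, 2792.7 and 3030.1 on untreated wild type arrays A to D, 1250.2, 2260.8, 1930.0 and 2324.3 at 4 h and 1771.8, 1721.7, 1604.2 and 1486.0 at 8 h. CHOP-/- arrays gave 2654.1, 3019.6, 4531.9 and 3059.9, 2701.6, 3036.1, 1628.7 and 2248.1 and 1803.5, 2092.2, 1800.1 and 2179.1. All 8 h arrays of each genotype lay under all untreated arrays of it. The log2 change was -0.71 in wild type cells (SE 0.184, adjusted p = 0.00898) and -0.79 in CHOP-/- cells (SE 0.184, adjusted p = 0.00445). The CHOP-/- call was lost with each array centred on its median (adjusted p = 0.0649) and kept in the other 16 settings. Its other probe sets also read lower at 8 h in wild type cells, by log2 changes of -1.95 and -0.74. Col5a1, a chain of the type V collagen that nucleates fibrils, fell in CHOP-/- cells (log2 change -0.58, SE 0.172, adjusted p = 0.0235); its change in wild type cells was -0.34 (SE 0.172, adjusted p = 0.205). The Col5a1 call was lost in 7 of 17 other settings (where lost, the adjusted p reached 0.202). These included the mean over all probe sets of a gene and leaving out untreated array A or C or 8 h array A or C.

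The chains of type I collagen, the main collagen of skin, tendon and bone, did not move beyond their spread. Col1a1 signals were 7109.1, 9734.4, 7747.9 and 8583.9 in untreated and 8185.3, 8843.5, 6030.3 and 9229.7 in 8 h wild type cells, and 5558.2, 7859.5, 10224.1 and 5705.3 and 8325.9, 10599.0, 6832.9 and 7365.5 in CHOP-/- cells. The ranges overlap in both genotypes. The log2 change of Col1a1 was -0.03 (SE 0.083, adjusted p = 0.885) in wild type and -0.03 (SE 0.083, adjusted p = 0.844) in CHOP-/- cells. For Col1a2, its partner chain, the changes were -0.02 and -0.08, and for Col5a2 they were 0.02 and 0.09. These probe sets were bright, with Col1a1 reaching 10599 on an array where no signal in the series passed 12405.1, and whether they were close to saturation is not given. Second, dimmer probe sets gave 0.19 for Col1a1 and -0.16 for Col1a2 in wild type cells, neither called.

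**Figure D2:**
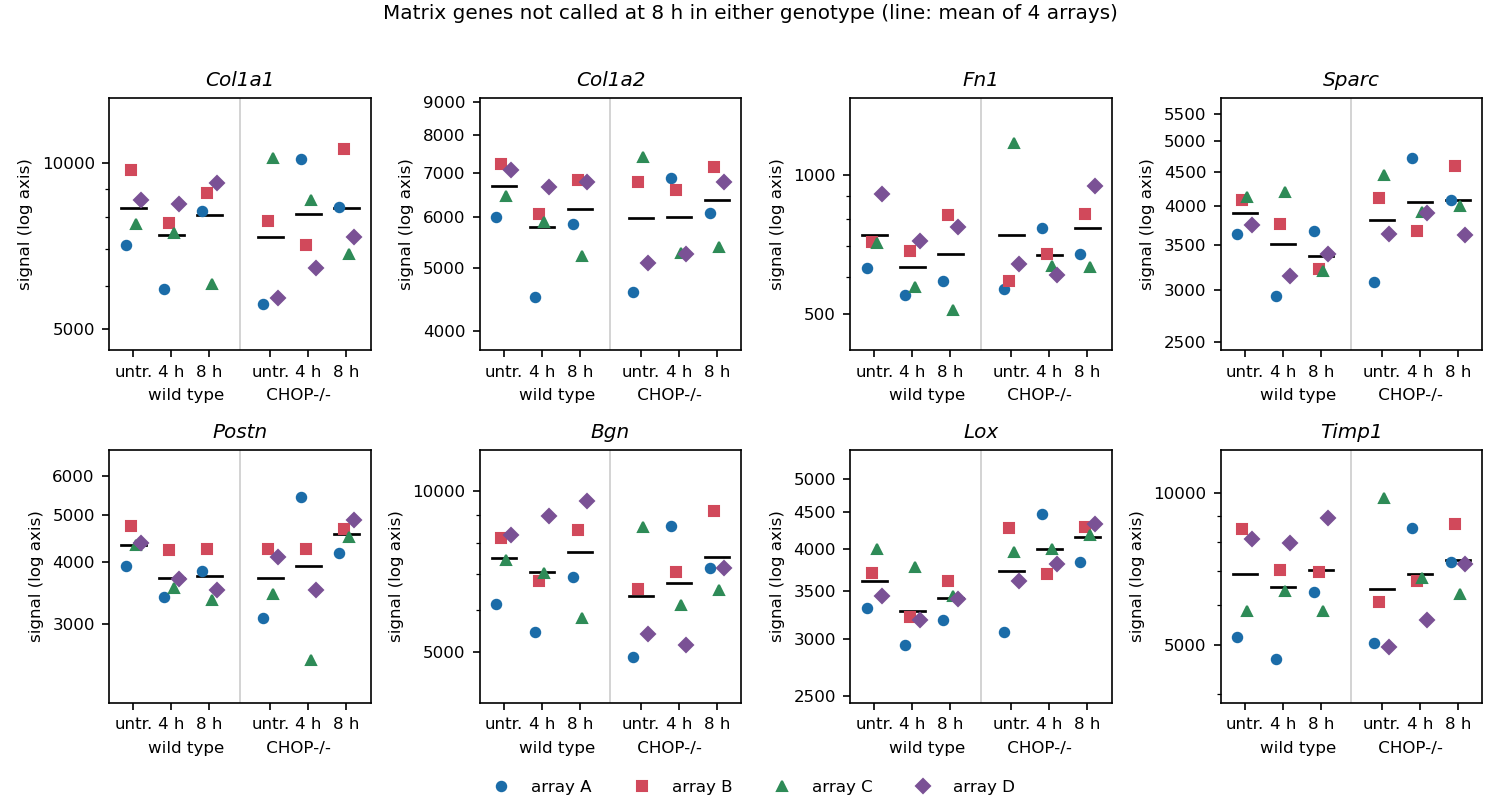
Signal on each array (vertical log axis) for 8 matrix genes not called at 8 h in either genotype, by group (horizontal axis); markers give the array letter and lines the mean of 4 arrays. Untreated and 8 h arrays overlap for each of the 8 genes within each genotype.

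Of the other collagens, 12 were tested, 1 fell in wild type cells and 4 fell in CHOP-/- cells at 8 h. Col8a1, a short-chain network collagen, read 1202.5, 764.9, 1274.9 and 1085.1 in untreated, 1009.2, 594.6, 982.3 and 830.2 in 4 h and 665.9, 488.0, 658.8 and 508.6 in 8 h wild type cells. The CHOP-/- arrays read 1286.5, 1633.3, 1641.6 and 1480.8, 1096.8, 1295.5, 966.6 and 877.3 and 1032.3, 871.9, 882.6 and 793.9. No 8 h array reached an untreated array of its genotype. The log2 change was -0.88 (SE 0.17, adjusted p = 0.000775) in wild type cells, 1.84-fold lower, and -0.76 (SE 0.17, adjusted p = 0.00348) in CHOP-/- cells. Type VI collagen forms beaded filaments around cells, and Col6a3 and Col6a1 fell in CHOP-/- cells. Col6a3 signals there were 2394.2, 2718.8, 3813.9 and 2433.2 in untreated, 2274.5, 2885.0, 1397.5 and 2126.6 in 4 h and 1713.5, 1524.0, 2064.8 and 1759.3 in 8 h cells, a log2 change of -0.72 (SE 0.206, adjusted p = 0.0199). In wild type cells they were 2644.4, 2162.9, 3101.0 and 3804.2, 2548.6, 1840.3, 2581.4 and 3432.5 and 1840.0, 2258.2, 1960.4 and 2342.2 (-0.41, SE 0.206, adjusted p = 0.197). Untreated CHOP-/- array C was the highest of all 24 for Col6a3, and untreated and 8 h arrays overlapped in wild type but not in CHOP-/- cells. The call was lost in 3 of 17 other settings, including without untreated array C or 8 h array B (where lost, the adjusted p reached 0.0986). Col6a1 changed by -0.72 (SE 0.211, adjusted p = 0.0227), and Col18a1, whose C-terminal fragment is endostatin, by -0.59 (SE 0.194, adjusted p = 0.0444). The untreated and 8 h arrays of both genes overlapped. The Col6a1 call was lost in 5 of 17 other settings, including without untreated arrays A or C or 8 h array C (where lost, the adjusted p reached 0.102). The Col18a1 call was lost in 10 of 17 other settings (where lost, the adjusted p reached 0.17). Among them were the mean over all probe sets and leaving out untreated array A, C or D or 8 h array A, B or D. Col6a2, the third chain, was at -0.69 (SE 0.299, adjusted p = 0.135) and was not called.

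Basement membrane genes encode the sheet that cells rest on, built of laminins and type IV collagen and linked by nidogens. Of 12 tested, 1 fell in wild type cells and 3 fell in CHOP-/- cells at 8 h. Nid1, nidogen, had the largest fall of the 8 matrix genes called in wild type cells without pairing of arrays. Its wild type signals were 175.4, 96.1, 144.7 and 148.5 untreated, 170.3, 111.7, 63.4 and 97.4 at 4 h and 59.8, 44.1, 32.9 and 43.7 at 8 h. The CHOP-/- signals were 97.5, 108.7, 116.7 and 110.7, 94.8, 79.8, 48.8 and 70.0 and 46.0, 42.0, 65.6 and 80.1. At 4 h in wild type cells array C alone lay under all untreated arrays, whereas at 8 h all arrays were lower in both genotypes. Nid1 was 2.83-fold lower in wild type cells at 8 h (log2 change -1.50, SE 0.222, adjusted p = 4.36e-05) and 1.72-fold lower in CHOP-/- cells (-0.79, SE 0.222, adjusted p = 0.0184). The CHOP-/- call was lost in 3 of 16 other settings, including without untreated array B or 8 h arrays A or B (where lost, the adjusted p reached 0.0658). The laminin chains Lama4 and Lama5 fell only slightly past the threshold in CHOP-/- cells (-0.37, SE 0.12, adjusted p = 0.0423, and -0.81, SE 0.27, adjusted p = 0.0463). The Lama4 call was lost in 9 of 17 other settings (where lost, the adjusted p reached 0.292). These included the mean over all probe sets and leaving out untreated array B or C or 8 h array A, B, C or D. The Lama5 call was lost in 11 of 17 other settings (where lost, the adjusted p reached 0.182). Among them were the mean over all probe sets and leaving out untreated array A or C or 8 h array A, B, C or D. Col4a1 and Col4a2, the common chains of type IV collagen, were not called in either genotype; for Col4a1 the values were -0.34 (SE 0.123, adjusted p = 0.0586) in wild type and -0.04 (SE 0.123, adjusted p = 0.895) in CHOP-/- cells.

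The elastic fibre has an elastin core and a sheath of fibrillin microfibrils, and the lysyl oxidases cross-link it. Of 9 genes tested, 2 fell at 8 h in each genotype. Mfap2, a small protein of the microfibril also called MAGP1, gave the most even falls. In wild type cells its signals were 600.4, 564.9, 358.3 and 436.3 untreated, 299.6, 410.0, 317.8 and 339.4 at 4 h and 244.8, 229.8, 170.1 and 191.6 at 8 h. CHOP-/- cells gave 504.0, 534.6, 527.0 and 471.3, 271.0, 412.4, 478.8 and 432.1 and 213.8, 226.4, 156.2 and 188.0. The 8 h arrays of both genotypes lay between 156.2 and 244.8, under every untreated array. Mfap2 was 2.32-fold lower in wild type (-1.21, SE 0.182, adjusted p = 5.25e-05) and 2.56-fold lower in CHOP-/- cells (-1.36, SE 0.182, adjusted p = 1.46e-05). Both calls were kept in every other setting tried.

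Fbln2, fibulin 2, which binds nidogen and elastic fibres, read 5400.9, 6755.5, 5577.5 and 5940.9 in untreated, 4541.2, 5323.6, 4846.7 and 5340.4 in 4 h and 3021.0, 3714.4, 3123.0 and 3704.5 in 8 h wild type cells. The CHOP-/- arrays read 4420.4, 5992.3, 6002.0 and 4468.3, 6823.0, 5274.0, 2878.6 and 3621.3 and 4128.1, 5991.4, 4320.9 and 4501.6. The wild type arrays fell without overlap (-0.69, SE 0.173, adjusted p = 0.00722), and the CHOP-/- arrays overlapped (-0.30, SE 0.173, adjusted p = 0.282). Fbn2, fibrillin 2, the fibrillin of developing tissue, was dim. Its CHOP-/- signals were 54.0, 55.2, 61.2 and 96.0 untreated, 23.6, 34.6, 28.5 and 41.6 at 4 h and 16.0, 12.6, 14.2 and 28.8 at 8 h. The wild type signals were 61.8, 33.7, 54.4 and 44.3, 38.8, 28.5, 32.4 and 41.1 and 50.1, 31.2, 31.9 and 26.2. Fbn2 fell in CHOP-/- cells at 4 h (-0.96, SE 0.234, adjusted p = 0.037) and at 8 h (-1.52, SE 0.234, adjusted p = 8.9e-05). After normalization all 4 CHOP-/- arrays at 8 h lay under the signal limit, so that the fall there is given as at least 2-fold. The call at 4 h was lost in 11 of 16 other settings, including without untreated arrays B, C or D or 4 h arrays A, B, C or D (where lost, the adjusted p reached 0.158). Its wild type change at 8 h was -0.38 (SE 0.234, adjusted p = 0.314). Lox, which cross-links collagen and elastin, stayed between 2942.7 and 4470.6 on all 24 arrays and was called against untreated cells at no time.

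Fibronectin and the matricellular proteins, which modulate how cells hold the matrix, gave no call in 5 tested genes. Their log2 changes at 8 h lay between -0.29 and 0.02 in wild type cells. Fn1 had 628.9, 714.9, 712.2 and 906.3 in untreated and 588.7, 819.0, 510.7 and 769.5 in 8 h wild type cells, and 566.4, 587.6, 1171.2 and 641.6 and 673.9, 821.1, 630.7 and 944.3 in CHOP-/- cells. Only untreated CHOP-/- array C stood apart, as the highest. Sparc, which binds collagen, changed by -0.15 (SE 0.0796, adjusted p = 0.215) and -0.01 (SE 0.0796, adjusted p = 0.976), and Postn, periostin, by -0.14 and 0.20. Bgn, biglycan, one of 3 small leucine-rich proteoglycans tested, changed by 0.07 and 0.07 with neither called.

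**Figure D3:**
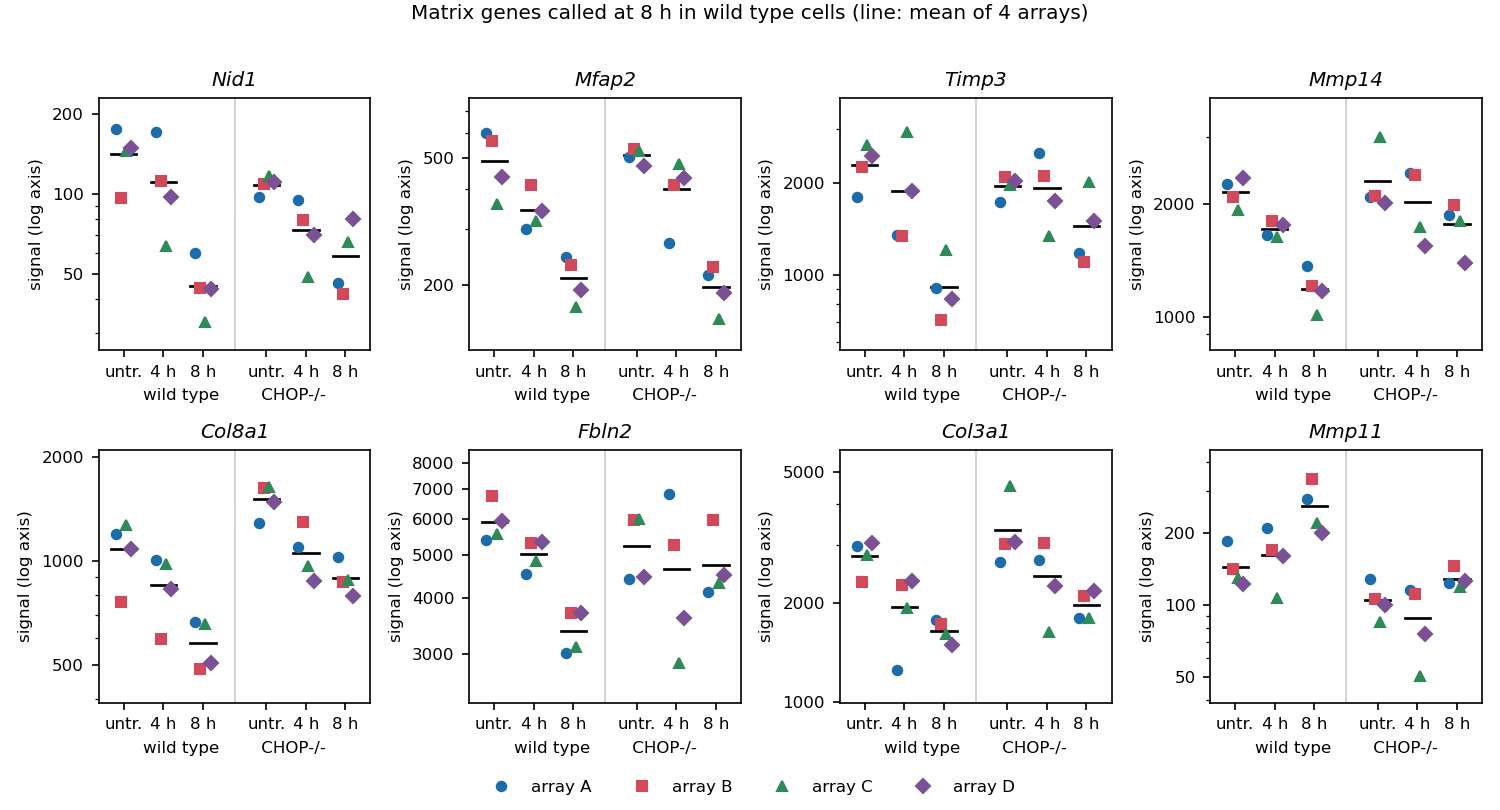
Signal on each array (vertical log axis) for the 8 matrix genes called at 8 h in wild type cells, by group (horizontal axis); markers give the array letter and lines the mean of 4 arrays. In wild type cells the 8 h arrays of Nid1 (32.9 to 59.8) and Mfap2 (170.1 to 244.8) lie under all untreated arrays, and those of Mmp11 (200.5 to 338.2) lie above them.

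Proteases and their inhibitors set how fast the matrix is turned over. Of 8 proteases tested, 1 fell and 1 rose in wild type cells at 8 h, and none was called in CHOP-/- cells. Mmp14, the membrane-bound collagenase that also activates pro-Mmp2, read 2258.3, 2075.9, 1918.9 and 2330.7 untreated, 1649.4, 1803.0, 1633.7 and 1756.0 at 4 h and 1365.6, 1206.3, 1013.9 and 1173.5 at 8 h in wild type cells. The CHOP-/- arrays read 2083.9, 2096.2, 3002.4 and 2007.0, 2410.4, 2384.5, 1734.8 and 1544.7 and 1869.4, 1983.6, 1793.1 and 1392.0. Wild type arrays at each later time lay under all untreated ones, and CHOP-/- arrays did so at 8 h. The change at 8 h was -0.83 (SE 0.149, adjusted p = 0.000349) in wild type and -0.39 (SE 0.149, adjusted p = 0.0827) in CHOP-/- cells, of which the second was not called. Mmp11, stromelysin 3, was the only matrix gene that rose. Its wild type signals were 186.4, 141.5, 129.5 and 123.2 untreated, 210.3, 170.5, 107.4 and 161.1 at 4 h and 278.6, 338.2, 221.4 and 200.5 at 8 h. Its CHOP-/- signals were 129.3, 106.7, 84.9 and 100.2, 116.4, 111.6, 50.5 and 75.8 and 124.3, 145.8, 118.8 and 126.2. It was 1.71-fold higher in wild type cells at 8 h (0.78, SE 0.216, adjusted p = 0.0145), and the call was lost in 2 of 18 other settings, including without untreated array D or 8 h array B (where lost, the adjusted p reached 0.0587). The CHOP-/- change was 0.34 (SE 0.216, adjusted p = 0.341).

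Timp3, the inhibitor that stays bound to the matrix, fell in wild type cells. Its signals were 1793.4, 2252.8, 2659.7 and 2450.1 untreated, 1351.1, 1337.2, 2941.7 and 1873.6 at 4 h and 900.8, 712.7, 1205.5 and 829.8 at 8 h. CHOP-/- cells gave 1726.1, 2083.1, 1964.0 and 2030.4, 2498.2, 2112.8, 1333.8 and 1750.0 and 1174.0, 1100.7, 2012.6 and 1504.1. All wild type 8 h arrays were under all untreated ones, whereas CHOP-/- array C at 8 h stayed among the untreated arrays. Timp3 was 2.47-fold lower in wild type cells (-1.31, SE 0.215, adjusted p = 0.000143), and its CHOP-/- change was -0.49 (SE 0.215, adjusted p = 0.135). The soluble inhibitor Timp1 did not move beyond its spread, at 0.13 (SE 0.118, adjusted p = 0.533) and 0.04 (SE 0.118, adjusted p = 0.87). Timp2 was at -0.56 (SE 0.241, adjusted p = 0.122) and -0.43 (SE 0.241, adjusted p = 0.271).

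At 4 h few matrix genes passed. In wild type cells none of the 58 was called by limma, 3 had an unadjusted p under 0.05 and all 3 of those read lower. Of the 5662 genes tested, 632 had an unadjusted p under 0.05, 229 of them lower. Over all genes 1.8% were called higher and 0.336% lower. The median log2 change of the matrix genes was nevertheless -0.11, with 45 of 58 (77.6%) below 0, against -0.02 and 55.5% of all genes. Fbn2 alone was called in CHOP-/- cells, where 0.971% of all genes were called higher and 0.548% lower. The median log2 change there was -0.13, with 43 of 58 (74.1%) below 0, against 0.00 and 50.5% of all genes. Between 4 h and 8 h, 5 matrix genes fell further in wild type cells, where 2.08% of all genes were called higher and 2.05% lower. They were Nid1 (-1.09, SE 0.222, adjusted p = 0.0056), Timp3 (-0.98, SE 0.215, adjusted p = 0.00972), Mfap2 (-0.68), Mmp14 (-0.56) and Fbln2 (-0.63). The Timp3 call was lost with each array centred on its median and with only the groups compared (adjusted p of at most 0.0905). The Mfap2 call was lost in 8 of 18 other settings, including without 4 h arrays B, C or D or 8 h arrays B, C or D (where lost, the adjusted p reached 0.113). For Mmp14 it was lost in 7 of 18 other settings, including without 4 h arrays A, B or D or 8 h arrays B, C or D (where lost, the adjusted p reached 0.211). For Fbln2 it was lost in 10 of 18 other settings, including without 4 h arrays A, B or D or 8 h arrays A, B, C or D (where lost, the adjusted p reached 0.305). In CHOP-/- cells Mfap2 alone fell between 4 h and 8 h (-1.0, SE 0.182, adjusted p = 0.00205), against 3.46% of genes called higher and 2.14% lower. The comparisons with 4 h and with untreated cells share their 8 h arrays.

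In wild type cells the arrays of 1 letter deviated together at all 3 times, so the letters pair the arrays and a fit of the compared groups with the letter as a block was added after seeing the data. Paired in this way, 21 matrix genes were called at 8 h, the 8 above and 13 more, all of them lower, where 14.9% of all genes were called higher and 13.8% lower. With the block fitted over all 24 arrays 11 were called, the 8 and Col4a1, Mmp10 and Timp2, so that 10 of the 13 additions, Lum among them, rest on fitting the paired groups alone. Lum, lumican, which spaces collagen fibrils, had signals of 280.6, 430.5, 64.3 and 99.0 untreated, 158.7, 448.4, 43.8 and 79.2 at 4 h and 129.0, 222.8, 33.1 and 33.1 at 8 h in wild type cells. Each array was lower at 8 h than the untreated array of its letter, although the groups overlap. Its log2 change was -1.03 with SE and adjusted p of 0.616 and 0.292 unpaired, and SE 0.137, adjusted p = 0.000683 paired. Mmp10, stromelysin 2, read 558.2, 2252.9, 47.8 and 226.0 untreated, 693.0, 1598.6, 133.2 and 190.1 at 4 h and 235.7, 257.5, 34.8 and 28.8 at 8 h, again lower at 8 h for every letter. Its change of -1.83 had an adjusted p of 0.247 unpaired and passed when paired (SE 0.379, adjusted p = 0.00661). Against 4 h its change was -2.08 (paired fit, SE 0.195, adjusted p = 0.000501). The other gains were Col4a1 (paired fit, SE 0.0708, adjusted p = 0.0064), Col6a1 (SE 0.0705, adjusted p = 0.00484), Col7a1, Col5a1, Col6a3, Dcn, Eln, Loxl1, Mfap5, Nid2 and Timp2. From 4 h to 8 h the paired fit called 8 genes, adding Col8a1, Mmp10 and the rise of Mmp11 to the 5, where 3.51% of all genes were called higher and 3.99% lower.

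Several secreted proteases and proteoglycans differed more between arrays of a group than between groups. The pooled within-group SD of the log2 signal was 1.62 for Mmp12, 1.61 for Mmp10, 1.37 for Mmp3, 1.16 for Mmp13, 0.991 for Mmp9, 0.978 for Lum and 0.954 for Dcn. The median was 0.328 for the matrix genes and 0.267 for all genes tested. Mmp9, Mmp10, Mmp12 and Mmp13 were singled out after their values were seen. Mmp3, stromelysin 1, read 1208.3, 5120.1, 181.9 and 1298.6 on untreated wild type arrays A to D, 1677.4, 4701.7, 223.4 and 1150.4 at 4 h and 859.8, 3478.8, 237.1 and 861.8 at 8 h. On CHOP-/- arrays it read 1476.2, 666.2, 661.8 and 266.4, 1549.0, 838.0, 446.8 and 572.2 and 750.1, 1196.0, 338.1 and 835.5. Wild type array B was the highest and array C the lowest at all 3 times, so that the letters differed far more than the times. Mmp12, macrophage elastase, read 993.8, 3231.0, 141.0 and 226.4 on the untreated wild type arrays, and Mmp13, the main rodent interstitial collagenase, read 1261.2, 3837.1, 225.2 and 1068.7. Array B was highest at all 3 times for both of these and for Mmp10 and Lum. Dcn, decorin, read 1477.1, 2651.0, 572.3 and 851.6 untreated, 2373.5, 2231.6, 514.6 and 710.7 at 4 h and 1136.4, 2518.6, 414.8 and 481.3 at 8 h in wild type cells, with array C lowest each time, and 1721.1, 1785.7, 507.5 and 936.0, 2473.8, 1354.5, 1056.8 and 842.7 and 1802.1, 2633.4, 693.8 and 1111.6 in CHOP-/- cells.

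The summed signal of the 7 leukocyte markers on the array also differed between the wild type arrays, with array B highest and array C lowest at all 3 times. It was 1186.8, 2187.2, 269.7 and 354.7 on untreated wild type arrays A to D, 1318.1, 2195.7, 262.3 and 276.5 at 4 h, and 981.6, 2051, 194.2 and 246.1 at 8 h. In CHOP-/- cells the sums ranged from 198.1 to 549.8 untreated, 185.9 to 416.7 at 4 h and 133.3 to 394.7 at 8 h. Lyz2, lysozyme of macrophages, supplied much of it, with 651.7, 1551.3, 134.2 and 167.7 on the untreated wild type arrays. Single markers did not all follow the sum. On untreated arrays Laptm5 (318.2 against 272.4) and Cd68 (107.2 against 105.8) were higher on array A than on array B, and Lyz2 was lowest on array D at 4 h (112.1) and 8 h (76.7). Of the 7 markers, Lyz2, Laptm5 and Cd68 passed the signal limit and Ptprc, Cd3e, Adgre1 and Itgam did not. None was listed at 0, and Ptprc lay between 0.7 and 32.9. The part of these cells in the matrix gene values was not tested.

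**Figure D4:**
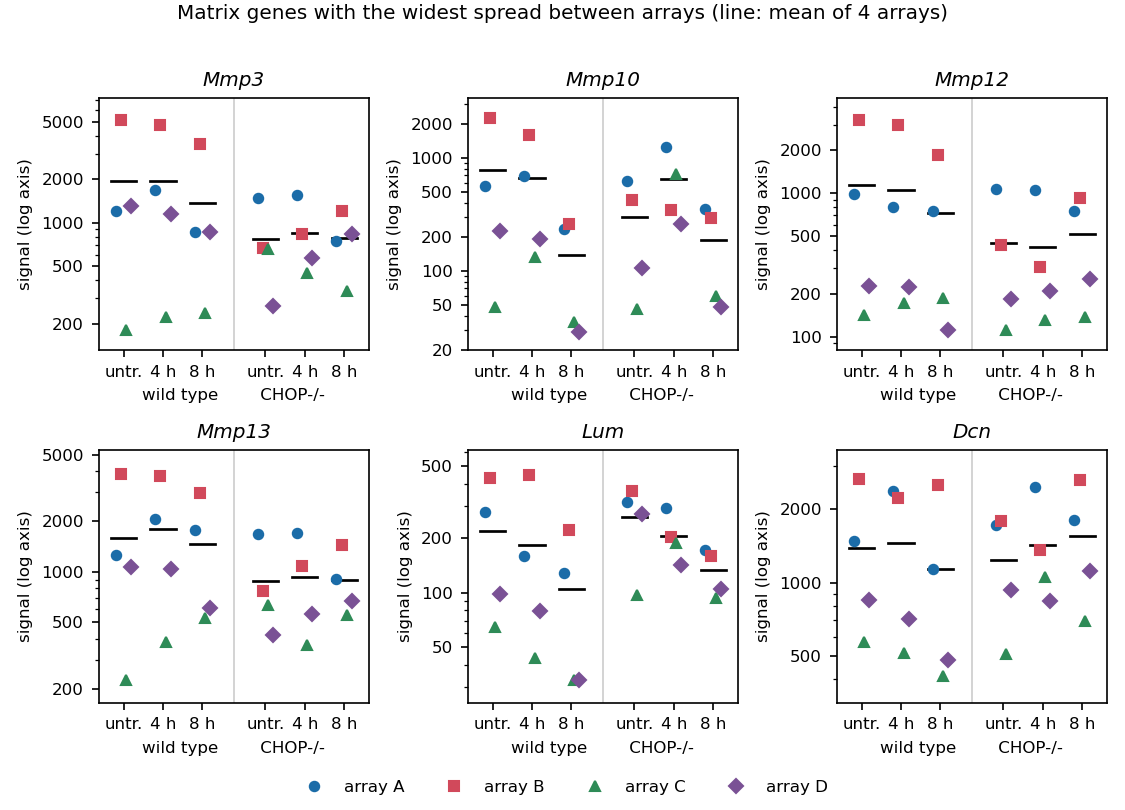
Signal on each array (vertical log axis) for 6 matrix genes with wide spread between arrays, by group (horizontal axis); markers give the array letter and lines the mean of 4 arrays. Wild type array B (squares) is highest at all 3 times for Mmp3, Mmp10, Mmp12, Mmp13 and Lum, with Mmp3 at 5120.1 on untreated array B and 181.9 on untreated array C.

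Wild type array B was highest at all 3 times for 6 matrix genes, Mmp3, Mmp10, Mmp12, Mmp13, Lum and Col4a1. Array C was lowest at all 3 times for 11 matrix genes, and 2 showed both. The same shares over all genes were not counted, so whether 6 or 11 is many is not known. Col4a1 held none of the 4 motifs searched, and Lum had no promoter among those searched. The promoters of the 4 Mmp genes are shown, and a part of these promoters in the array B pattern was not tested. Those 4 genes lie with Mmp7 and Mmp8 in 1 cluster on mouse chromosome 9 (RefSeq, GRCm38.p6). The windows run from 110 bases before to 10 bases after the RefSeq start, and capitals mark the AP-1 element TGACTCA or its reverse complement. AP-1 is the Fos and Jun factor that growth factors, phorbol ester and cytokines activate. Col6a1, which fell in CHOP-/- cells, held the same letters and is shown with them. Timp1 is shown with its XBP1 and ATF6 element in capitals.
Mmp3 (chr9:7445712-7445831, plus strand): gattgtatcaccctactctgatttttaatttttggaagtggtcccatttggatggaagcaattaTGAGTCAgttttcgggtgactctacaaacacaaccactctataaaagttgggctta
Mmp10 (chr9:7502232-7502351, plus strand): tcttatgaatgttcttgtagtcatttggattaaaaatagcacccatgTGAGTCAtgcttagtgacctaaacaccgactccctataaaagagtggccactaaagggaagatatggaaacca
Mmp12 (chr9:7347264-7347383, plus strand): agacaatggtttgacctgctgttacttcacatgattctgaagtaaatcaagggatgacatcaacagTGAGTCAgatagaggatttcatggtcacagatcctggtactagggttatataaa
Mmp13 (chr9:7272404-7272523, plus strand): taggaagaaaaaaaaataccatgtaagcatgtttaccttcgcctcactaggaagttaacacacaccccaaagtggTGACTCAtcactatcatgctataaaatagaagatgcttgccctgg
Col6a1 (chr10:76726035-76726154, minus strand): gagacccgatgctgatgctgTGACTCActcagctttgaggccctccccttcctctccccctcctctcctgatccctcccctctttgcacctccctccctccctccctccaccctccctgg
Timp1 (chrX:20870056-20870175, plus strand): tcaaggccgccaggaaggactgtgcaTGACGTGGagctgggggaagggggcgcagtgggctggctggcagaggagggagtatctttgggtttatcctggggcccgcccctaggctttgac
The 4 motifs described here were searched on both strands from 250 bases before to 50 bases after the start, and 48 of the 75 matrix genes had a promoter in the RefSeq table. AP-1 was found in 6 of the 48 genes (12.5%), against 5.95% of all 27025 genes with a promoter there. The 6 were Mmp3, Mmp7, Mmp10, Mmp12, Mmp13 and Col6a1, with matches 46, 63, 63, 44, 35 and 90 bases before the start. All but Col6a1 lie in the chromosome 9 cluster, where Mmp8 held no match. Mmp7 was below the signal limit. Another listed start of Mmp7 and of Mmp12 had no match. The XBP1 and ATF6 element TGACGTGG was found in Timp1 only (2.08%, against 0.714% of all genes). The ATF4 and CHOP composite element TGATGNAAT was found in none, against 1.08% of all genes, and the ER stress element (CCAAT, any 9 bases, CCACG) in none, against 0.137%. Of the 12 genes that fell at 8 h in either genotype and had a promoter in the table, Col6a1 alone held AP-1 and none held the other 3 motifs. A match or its absence describes these letters in this window.

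The genotypes differed in 3 matrix genes untreated, 3 at 4 h and 7 at 8 h. Col15a1 and Mfap4 were called at all 3 times and Eln untreated and at 8 h, while Mmp11 was called at 4 h and 8 h and Mmp14, Col8a1 and Lox at 8 h alone. In untreated cells Col15a1, Eln and Mfap4 were higher in CHOP-/- cells and none was lower, where 0.618% of all genes were called higher and 0.371% lower. Col15a1, a basement membrane zone collagen with an endostatin-like domain, read 56.7, 29.8, 41.9 and 84.8 in wild type and 326.6, 167.7, 319.1 and 188.1 in CHOP-/- untreated cells. At 4 h the signals were 48.8, 48.8, 44.6 and 109.9 against 233.8, 285.3, 121.4 and 172.9, and at 8 h 39.3, 47.7, 42.4 and 44.9 against 154.2, 218.3, 168.5 and 194.3. The groups never overlapped. The log2 difference was 2.12 (SE 0.274, adjusted p = 0.000101) untreated, 1.66 (SE 0.274, adjusted p = 0.000913) at 4 h and 1.88 (SE 0.274, adjusted p = 0.000146) at 8 h. The calls were kept in all 16, 16 and 17 other settings in which Col15a1 was tested. Eln, elastin, read 121.2, 72.0, 160.5 and 186.7 in wild type and 561.3, 295.6, 1464.3 and 636.9 in CHOP-/- untreated cells, 49.4, 69.4, 158.4 and 156.5 and 283.9, 537.9, 143.5 and 303.9 at 4 h, and 88.5, 36.6, 149.5 and 103.6 and 305.3, 278.1, 482.2 and 309.7 at 8 h. The genotypes overlap at 4 h alone. Eln differed by 2.20 (SE 0.48, adjusted p = 0.0203) untreated and by 1.90 (SE 0.48, adjusted p = 0.024) at 8 h, and was at 1.58 (SE 0.48, adjusted p = 0.0838) at 4 h. The untreated call was lost in 4 of 17 other settings, including without wild type arrays A or B or CHOP-/- array C (where lost, the adjusted p reached 0.0973). The call at 8 h was lost in 5 of 18 other settings (where lost, the adjusted p reached 0.0929). These were the mean over all probe sets and leaving out wild type array A or B or CHOP-/- array A or C.

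Mfap4, a microfibril protein that binds elastin and collagen, read 37.6, 39.4, 27.1 and 61.7 in wild type and 81.6, 64.2, 99.4 and 110.9 in CHOP-/- untreated cells, 34.7, 37.0, 33.2 and 40.8 and 96.0, 153.3, 56.4 and 123.8 at 4 h, and 32.5, 43.0, 28.6 and 41.6 and 92.0, 89.5, 105.2 and 58.9 at 8 h. Every CHOP-/- array was higher than every wild type array of its time. The differences were 0.99 (SE 0.243, adjusted p = 0.0477), 1.34 (SE 0.243, adjusted p = 0.00235) and 1.08 (SE 0.243, adjusted p = 0.0103), and the call in untreated cells was lost in 12 of 15 other settings, including without wild type arrays A, B or C or CHOP-/- arrays A, B, C or D (where lost, the adjusted p reached 0.156). At 4 h, 1.15% of all genes were called higher and 1.29% lower in CHOP-/- cells, and Mmp11 was lower (-0.90, SE 0.216, adjusted p = 0.0241). That call was lost in 6 of 17 other settings, including without wild type arrays A, B or D or CHOP-/- arrays C or D (where lost, the adjusted p reached 0.151). At 8 h, 6 matrix genes were higher and 1 lower, against 2.28% and 1.91% of all genes. Besides Col15a1, Eln and Mfap4 the higher ones were Mmp14 (0.57, SE 0.149, adjusted p = 0.0296), Col8a1 (0.62, SE 0.17, adjusted p = 0.0406) and Lox (0.27, SE 0.0727, adjusted p = 0.0365), and Mmp11 was lower (-0.93, SE 0.216, adjusted p = 0.0128). The Lox call was lost in 11 of 18 other settings (where lost, the adjusted p reached 0.563). These included the mean over all probe sets and leaving out wild type array A, B or D or CHOP-/- array B, C or D. The Mmp14 call was lost in 7 of 18 other settings, including without wild type arrays B, C or D or CHOP-/- arrays A, B or C (where lost, the adjusted p reached 0.116). The Col8a1 call was lost in 7 of 18 other settings, including without wild type arrays B or D or CHOP-/- arrays A, B or C (where lost, the adjusted p reached 0.138). The Mmp11 call was lost in 1 of 18 other settings, including without wild type array B (where lost, the adjusted p reached 0.0572). With the 8 h arrays paired by letter 15 were called, where 6.25% of all genes were called higher and 5.32% lower. The 8 added were Timp3 (0.66, paired fit, SE 0.102, adjusted p = 0.00538), Fbln2 (0.46), Col4a1 (0.39), Dcn (0.66) and Mmp9 (0.69), which were higher, and Col6a1 (-0.51), Col18a1 (-0.61) and Thbs2 (-0.44), which were lower. The block over all 24 arrays called 10, adding Col4a1, Col18a1 and Fbn2 (-0.78, adjusted p = 0.0477) to the 7. Cell type markers differed at 8 h too. Higher in CHOP-/- cells were the endothelial Flt1 (1.16, 1 of 1 tested) and the neural Tubb3 (0.73) and Ncam1 (0.72, 2 of 3 tested). Of 6 fibroblast markers tested, Pdgfrb (0.75) was higher and S100a4 (-0.77) lower. No leukocyte marker was called, but all 3 tested read lower (median -0.84). The part of these marker differences in the matrix gene differences was not tested.

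**Figure D5:**
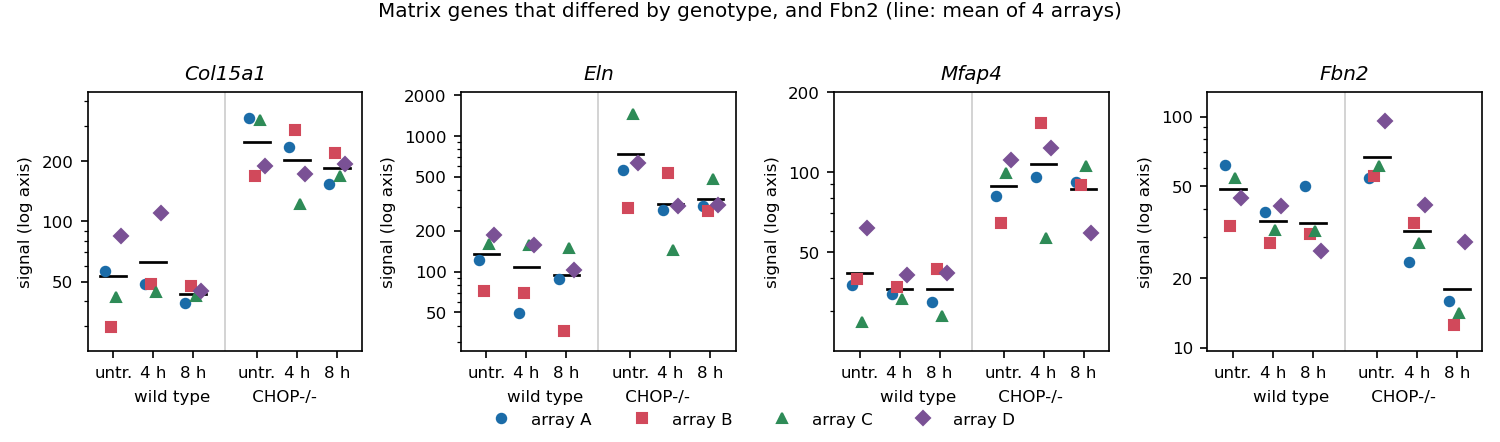
Signal on each array (vertical log axis) for Col15a1, Eln, Mfap4 and Fbn2, by group (horizontal axis); markers give the array letter and lines the mean of 4 arrays. Col15a1 arrays lie at 29.8 to 109.9 in wild type and 121.4 to 326.6 in CHOP-/- cells.

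Whether CHOP altered the response itself was tested by subtracting the wild type change from the CHOP-/- change, and no matrix gene was called. At 4 h limma called 0 matrix genes, and 0% of all genes were called higher and 0% lower. None of 58 matrix genes had an unadjusted p under 0.05, against 226 of all 5662 genes. At 8 h, of all genes 0% were called higher and 0.0353% lower. An unadjusted p under 0.05 was found for 4 of 58 matrix genes and for 262 of all 5662 genes. The 4 matrix genes were Timp3 (difference 0.81, SE 0.304, adjusted p = 0.999), Nid1 (0.71, SE 0.314, adjusted p = 0.999), Mmp14 (0.44, SE 0.211, adjusted p = 0.999) and Fbn2 (-1.14, SE 0.331, adjusted p = 0.668). Calls in 1 genotype and not in the other, such as Timp3 or the type VI collagens, are therefore not shown to differ between genotypes. The median SE of a response difference was 0.267 over all genes, against 0.189 for a difference of 2 groups.

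Untreated CHOP-/- array C touches the CHOP-/- counts. It was the highest of its 4 arrays for 28 of the 58 matrix genes (48.3%), against 32% of all genes tested, and for 8 of the 11 that fell at 8 h. A fall is measured from the untreated arrays, array C among them. The share over all genes called lower at 8 h was not counted. Without untreated array C 5 matrix genes were called at 8 h in CHOP-/- cells. The count was 7 without untreated array A and 6 without 8 h array A or B. In wild type cells leaving out any 1 array gave 7 to 9 calls. Centring each array on its median in place of quantile normalization gave 4 calls in CHOP-/- cells and 8 in wild type cells at 8 h. It also raised the share of higher genes among all calls from 57.9% to 68.6% in wild type cells and from 52.7% to 66% in CHOP-/- cells at 8 h.

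Genes that fold, modify and export collagen, which are not matrix genes by the rule, moved both ways. Of 18 tested, 3 rose and 2 fell in wild type cells at 8 h, with a median log2 change of -0.09, and 2 rose and 1 fell in CHOP-/- cells. Over all genes, 9.63% rose and 6.99% fell in wild type cells, and 7.35% rose and 6.59% fell in CHOP-/- cells. Ctage5, which helps load procollagen into transport carriers at ER exit sites, rose by 0.75 (SE 0.196, adjusted p = 0.00984) in wild type and 0.76 (SE 0.196, adjusted p = 0.00989) in CHOP-/- cells. Ppib, the ER prolyl isomerase cyclophilin B, rose by 0.36 and 0.43, and Mia3, the partner of Ctage5 also called TANGO1, rose by 0.64 in wild type cells (adjusted p = 0.04). P3h4, which forms a complex with a collagen lysyl hydroxylase, fell by 1.57 (SE 0.201, adjusted p = 6.39e-06) in wild type and by 1.16 (adjusted p = 0.000325) in CHOP-/- cells. Tll1, a protease that trims procollagen, fell by 0.56 in wild type cells (adjusted p = 0.0127). Bmp1, the procollagen C-proteinase, was higher in CHOP-/- cells at all 3 times, by 0.92, 1.01 and 1.3 (adjusted p = 0.0433, 0.0123 and 0.000772).

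Of 19 matrix receptors tested, 1 rose and 2 fell in wild type cells and 2 fell in CHOP-/- cells at 8 h, with medians of -0.08 and -0.09. For these and the next list, the shares over all genes were again 9.63% higher and 6.99% lower in wild type cells. In CHOP-/- cells they were 7.35% and 6.59%. Dag1, dystroglycan, a laminin receptor, fell by 0.83 and 0.84 (adjusted p = 0.000551 and 0.000555), and Sdc1, syndecan 1, by 0.73 and 0.86. Ddr2, a receptor for fibrillar collagen, rose by 0.59 in wild type cells (adjusted p = 0.0401). Of 23 other matrix proteins and modifiers, 7 fell and none rose in each genotype at 8 h, with medians of -0.34 and -0.44. Plau, the urokinase plasminogen activator, fell by 1.82 (SE 0.332, adjusted p = 0.000412) in wild type and 1.73 (SE 0.332, adjusted p = 0.000883) in CHOP-/- cells. Plat, the tissue plasminogen activator, fell by 0.79 and 0.99 (adjusted p = 0.0181 and 0.00414). Ccn1, a matricellular growth regulator, fell by 0.83 and 0.43 (adjusted p = 0.000255 and 0.0463). Ltbp1, which anchors latent TGF-beta in the matrix, was higher in CHOP-/- than in wild type cells at 8 h by 1.12 (adjusted p = 0.00074).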

How the data were processed

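Total RNA was measured on 24 oligonucleotide arrays, 4 in each of 6 groups. The authors deposited intensity values, linear probe set signals for 12488 probe sets, 66 of them controls; the sources used here do not give the software. That they are linear and scaled was read from the values. The array's gene table gave each probe set its gene. Of 11251 listed, 10855 had 1 gene and 396 had several, and the brightest probe set stood for its gene, which gave 8251 genes. Of the matrix genes, 25 had more than 1 probe set. Of 13 with 2 or more over the signal limit, 4 had probe sets of opposite sign at 8 h in wild type cells and 3 in CHOP-/- cells, none of them called there.

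A pseudocount of 5.7 (20th percentile) was added, log2 was taken, and values were quantile normalized. Fold changes are of log2(signal + pseudocount), which understates those of dim genes. A model of 6 group means was fitted to all 24 arrays (limma 3.58.1, R 4.3.3; lmFit, eBayes with intensity trend; residual degrees of freedom 18, prior 5.19) and tested on simulated data. The simulated noise was independent between arrays, so that test does not cover arrays that deviate together by letter. P-values are two-sided, adjusted by Benjamini-Hochberg within each of 11 contrasts over 5662 genes, with a threshold of 0.05. For arrays, their number limits the precision. Figures were drawn with Python 3.11.15 and matplotlib 3.10.9.

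The members and lists were chosen with earlier results of these data known. Named genes were a fixed set of well-known matrix genes, in each contrast up to 6 called members of smallest adjusted p, any other called member with its change, and called genes of the lists, up to 4 per contrast. The letters pair the wild type groups: residuals of same-letter arrays correlated at 0.314 to 0.553 (untreated and 4 h), 0.406 to 0.619 (untreated and 8 h) and 0.25 to 0.613 (4 h and 8 h). Between the genotypes at 8 h they correlated at 0.289 to 0.546. The pairing comes from the data, since the labels give only the shared letters; 5 of 15 pairs of groups showed it. Alternatives were other scalings, pseudocounts, filters, probe set rules, groups in the fit, the replicate block and leaving out each array.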

Additional observations from a re-analysis of the deposited data

Results flagged for a closer look

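In each of 144 groups of 4 arrays (24 matrix genes with values on every array, 6 groups), the highest and lowest arrays were compared with the rest by Dixon's test at the 95% level. The values were quantile normalized log2 signals, on which an array stood apart in 4 groups. Chance alone flags about 1 group in 20. Of these 4, the gap to the nearest array passed the limit on the deposited signals for Fn1 only. Untreated CHOP-/- array C was above its group for Fn1, with a deposited signal of 1171.2 against 566.4 to 641.6 on the other arrays and a normalized log2 value of 10.22 against 9.12 to 9.29. It was above its group for Col6a3 with a signal of 3813.9 and 11.87 against 11.33 to 11.42, where the gap was 0.834 of the range after normalization and 0.771 on the deposited signals. Untreated wild type array C was above its group for Lox with a signal of 4002.2 and 11.89 against 11.70 to 11.72, where the gap was 0.883 of the range and 0.423 on the deposited signals. Untreated wild type array D was above its group for Bgn with a signal of 8287.5 and 12.83 against 12.66 to 12.69. On the deposited signals array B read 8152.1 for Bgn, so that array D did not stand apart there.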

How the results depend on the processing

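Of 39 calls of single matrix genes, 17 were kept in every other setting in which the gene was tested, 7 were lost in most of them and none changed direction. The falls of Nid1, Mfap2, Timp3, Mmp14, Col8a1, Fbln2 and Col3a1 at 8 h in wild type cells were kept in all settings in which they were tested. Apart from genes that a filter removed, the cause of the moved counts was not tested. With the replicate block and only the groups compared, an alternative chosen after seeing the data, the count of called matrix genes was 21 in place of 8 for wild type 8 h against untreated, 8 in place of 5 for 8 h against 4 h and 15 in place of 7 for the genotypes at 8 h. The replicate block over all 24 arrays gave 11 for wild type 8 h against untreated, 10 for the genotypes at 8 h, 8 for wild type 8 h against 4 h, 2 in place of 1 for CHOP-/- 4 h against untreated and 3 in place of 1 for CHOP-/- 8 h against 4 h; it lost no call in any contrast. Median centring gave 1 for wild type 8 h against 4 h, 4 in place of 11 for CHOP-/- 8 h, 4 for the genotypes at 8 h and 0 for CHOP-/- at 4 h. It moved the share of higher genes among all calls from 50.4% to 65.9% for wild type 8 h against 4 h and from 61.8% to 79.8% for CHOP-/- 8 h against 4 h. Counts were 0 for CHOP-/- at 4 h without quantile normalization, without the filter and with the filter at the 60th percentile. That filter gave 1 in place of 3 for the genotypes untreated and 1 in place of 3 at 4 h, since it left Col15a1 and Mfap4 untested. Fitting only the groups compared gave 3 for wild type 8 h against 4 h and 1 for the genotypes untreated. The mean over all probe sets gave 7 in place of 11 for CHOP-/- 8 h against untreated, where Col5a1, Col18a1, Lama4 and Lama5 were lost. It also lost Eln and Lox for the genotypes at 8 h. Leaving out 1 array gave 2 to 4 for wild type 8 h against 4 h, lowest without 4 h array D or 8 h array B, C or D, and 0 to 1 for CHOP-/- at 4 h. It gave 5 to 11 for CHOP-/- at 8 h, lowest without untreated array C, and 1 to 3 for CHOP-/- 8 h against 4 h, highest without 4 h array A. It gave 1 to 3 for the genotypes untreated, lowest without wild type array A or B or CHOP-/- array C, and 3 to 8 for the genotypes at 8 h, lowest without wild type array B or CHOP-/- array C.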
